A study of Mus musculus with 8 samples.

Results

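Sense-overlapping noncoding transcripts are long noncoding RNAs that lie on the same strand as a protein-coding gene and share part of its span. They were taken as the probes whose noncoding type is given as sense overlap in the deposited table of long noncoding probes, which gave 3507 of the 7633 noncoding probes in that table and of 37246 measured probes on the array. The RNA was that of fibroblasts (connective tissue cells) from mouse embryos, known as MEFs, of Atm+/+ and Atm-/- littermates. Atm encodes the kinase that starts the signalling response to DNA double-strand breaks. Each genotype was harvested untreated (0 h), and 4, 8 and 24 h into exposure to the radiation-like agent neocarzinostatin (NCS), which cuts both strands of DNA. Each of the 8 combinations of genotype and time was measured on 1 one-colour Agilent array, the labels name neither the embryo nor the number of lines behind a genotype, and no untreated arrays were made at the later times.

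A transcript of this kind can be a splice form that carries no open reading frame, a transcript that begins inside the host gene, or a retained intron or extended end. Many are made from the promoter of the host gene, so their level can follow the host mRNA, while others have a start site of their own. Genes with known noncoding splice forms include Adarb1, which encodes an RNA-editing adenosine deaminase, and Gnas, an imprinted locus that encodes a G protein subunit.

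The transcripts carry the identifiers of 4 collections. The NRED database gave 1401, the UCSC known genes 1289, the FANTOM cDNA set 746 and RefSeq 71. Of the 71 RefSeq transcripts, 50 matched a symbol in the RefSeq annotation of GRCm38.p6, from 47 genes. For 30 of the 50 the gene was annotated as protein-coding, for 17 as a transcribed pseudogene, for 2 as a lncRNA gene and for 1 as an snRNA gene. The other collections give no host gene in the files, so comparison with a host mRNA was limited to the RefSeq transcripts.

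In 5 of these genes the probes of both the noncoding and the coding transcript differed between the genotypes, in the same direction. The noncoding calls for Adarb1, Trpt1 and Vash2 depend on the processing, as given with their values. The coding calls were not tested under other processing, and those of Vash2 and Trpt1 had limma adjusted p = 0.0476 and 0.032. The promoter windows of the 5 genes are printed here because both probes of each gene differed. Each window is 300 bases of GRCm38.p6 from RefSeq, read 5′ to 3′ on the strand of the gene. Capitals mark the letters of 3 motifs, searched on both strands. The GC box was GGGCGG. The CCAAT box was searched by the letters of its name. The TATA box was TATAAA. A match on the opposite strand is shown as the reverse complement, and no matches of different motifs overlap. Sec16b lies on the plus strand at chr1:157506546-157506845, Vsig8 on the plus strand at chr1:172559656-172559955, Vash2 on the minus strand at chr1:190979247-190979546, Adarb1 on the minus strand at chr10:77418224-77418523 and Trpt1 on the plus strand at chr19:6995881-6996180.
Sec16b: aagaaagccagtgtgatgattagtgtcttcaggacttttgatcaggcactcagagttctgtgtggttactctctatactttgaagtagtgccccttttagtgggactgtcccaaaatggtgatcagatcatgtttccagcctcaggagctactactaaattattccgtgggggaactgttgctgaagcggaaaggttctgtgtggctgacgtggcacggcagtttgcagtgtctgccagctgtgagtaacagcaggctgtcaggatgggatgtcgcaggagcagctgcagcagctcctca
Vsig8: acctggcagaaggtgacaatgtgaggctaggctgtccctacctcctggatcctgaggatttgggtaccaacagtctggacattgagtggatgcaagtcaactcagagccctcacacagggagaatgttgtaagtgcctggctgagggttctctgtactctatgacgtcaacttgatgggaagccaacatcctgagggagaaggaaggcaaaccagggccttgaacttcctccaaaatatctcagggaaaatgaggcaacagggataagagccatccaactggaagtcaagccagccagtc
Vash2: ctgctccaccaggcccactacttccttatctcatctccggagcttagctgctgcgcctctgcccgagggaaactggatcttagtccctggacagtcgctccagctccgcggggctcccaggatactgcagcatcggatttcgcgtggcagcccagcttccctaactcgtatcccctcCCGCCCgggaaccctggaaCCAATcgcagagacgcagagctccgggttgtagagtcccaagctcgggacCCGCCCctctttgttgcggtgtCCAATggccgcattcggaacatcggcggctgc
Adarb1: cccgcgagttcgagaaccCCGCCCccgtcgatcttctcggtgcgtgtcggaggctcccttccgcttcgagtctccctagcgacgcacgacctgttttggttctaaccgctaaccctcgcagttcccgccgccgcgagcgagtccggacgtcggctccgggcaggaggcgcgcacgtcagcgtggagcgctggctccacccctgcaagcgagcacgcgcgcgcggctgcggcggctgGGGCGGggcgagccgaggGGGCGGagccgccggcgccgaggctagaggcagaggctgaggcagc
Trpt1: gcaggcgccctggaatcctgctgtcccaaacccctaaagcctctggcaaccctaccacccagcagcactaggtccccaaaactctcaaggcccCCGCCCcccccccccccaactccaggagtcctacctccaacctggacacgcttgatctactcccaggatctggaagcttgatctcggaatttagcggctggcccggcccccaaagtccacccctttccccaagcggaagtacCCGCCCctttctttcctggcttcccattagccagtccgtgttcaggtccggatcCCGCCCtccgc
The windows of Adarb1 and Trpt1 each hold 3 GC boxes, and that of Vash2 holds 2 GC boxes and 2 CCAAT boxes. The printed windows of Sec16b and Vsig8 hold none of these letters, and none of the 5 holds the TATA box. Over 32851 RefSeq windows, 35.7% hold the GC box, 37.4% the CCAAT box and 13.6% the TATA box on either strand. The GC content was 73% for Adarb1, 62.7% for Trpt1 and for Vash2, 51.3% for Vsig8 and 50% for Sec16b, against a median of 52.7% over all windows. A match is a run of letters, not a measured binding site. RefSeq lists a second window for Sec16b, Vsig8 and Vash2, which is not printed, and its content differs. That of Sec16b holds 1 CCAAT box and has 54.3% GC. That of Vsig8 holds none of the 3 motifs and has 61% GC. For Vash2 it holds 2 GC boxes and no CCAAT box, with 70.3% GC. Which window the noncoding transcript uses is not given in the sources used here.

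Levels are log2 of the processed spot signal minus the 75th percentile of the same array, so that 0 is the level of a probe at that percentile. Of the 3507 probes, 3268 (93.2%) had a signal well above background on 2 or more arrays and entered the tests, 2495 (71.1%) were so on all 8 arrays, and the other 239 were so on 1 array only. The shares that passed were lower for the other noncoding types, at 89% for bidirectional, 83% for antisense and 76.9% for intergenic probes. Every noncoding probe of the deposited table was well above background on at least 1 array, so these shares start from a list without undetected probes. Over the whole array, 23300 of 37246 probes passed. By collection, 98.6% of the RefSeq transcripts, 97.9% of the FANTOM, 95.3% of the UCSC and 88.4% of the NRED transcripts passed. The median level of the sense-overlapping probes that passed lay between -2.5 and -2.13 over the arrays, against -1.41 to -1.08 for all probes that passed. Among the 2495 measured on every array, the correlation between arrays was 0.982 to 0.996 within a genotype and 0.977 to 0.988 between genotypes.

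The Atm+/+ arrays were on slide 1 and the Atm-/- arrays on slide 2, and time followed array position on both slides. The number of probe values left out as outlier spots was 179 on the Atm+/+ 24 h array and 1 to 19 on the others, and that array had 76% of the probes well above background against 84.4% to 90.5%. The Atm probe read -2.43 to -1.95 on the Atm+/+ arrays and -3.67 to -3.15 on the Atm-/- arrays, a difference of -1.24 ± 0.18 (SE, limma, adjusted p = 0.0137), and it stayed well above background on all 8. The Y-linked gene Ddx3y was well above background on the 4 Atm+/+ arrays and on none of the Atm-/- arrays. Of 12 fibroblast markers, 10 were well above background on all 8 arrays.

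Between the genotypes, the share of sense-overlapping transcripts that differed lay close to that of all probes. With 4 arrays per genotype and time as a term in the limma fit, 444 of 3266 (13.6%) passed an adjusted p of 0.05, against 14.7% of all 23292 probes tested. Higher in Atm-/- were 217 (6.64%, against 7.28% of all probes) and lower were 227 (6.95%, against 7.38%). The median difference was 0.014 over the transcripts and 0.007 over all probes (log2). Of the 444, 304 (68.5%) had levels that did not overlap between the genotypes, against 71.8% of the 3416 probes of any kind that passed. Since each genotype was on its own slide and came with a different Ddx3y signal, genotype, slide and sex of the embryo cannot be told apart. The count was 139 without either 0 h array, 131 without either 4 h array, 169 without either 8 h array and 639 without either 24 h array. Of the 444, 48.9% were higher in Atm-/-, and this share was 34.8% with outlier spots removed before scaling and 34.1% with normexp background correction.

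The collections differed in how many of their transcripts were called. The share was 16.9% of 1239 NRED transcripts, 14.3% of 70 RefSeq transcripts, 12% of 1229 UCSC transcripts and 10.6% of 728 FANTOM transcripts. Among transcripts well above background on all 8 arrays the shares were 16.1%, 11.9%, 11.3% and 10.2% in the same order. These differences between collections were not tested.

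Among the transcripts that were higher in Atm-/-, uc007zio had the largest difference. In order of time, its Atm+/+ levels were -5.11, -4.97, -4.9 and -5.06 and its Atm-/- levels -2.25, -2, -2.1 and -2.73, a difference of 2.74 ± 0.13 (SE, limma, adjusted p = 0.0016). Every Atm-/- array was above every Atm+/+ array, and all 8 values were well above background. AK038787 was also measured on every array, at -5.35 to -5.01 in Atm+/+ and -3.64 to -3.24 in Atm-/-, a difference of 1.7 ± 0.08 (SE, limma, adjusted p = 0.00165). AK036230 was well above background on 1 of the 4 Atm+/+ arrays and read -6.77 to -5.62 there against -4.83 to -3.31 in Atm-/- (limma, adjusted p = 0.00214). The remaining 7 of the 10 largest were not well above background on any Atm+/+ array, so their Atm+/+ side is a bound. AK161435 was at least 2.74-fold higher, AK084176 at least 2.35-fold, AK087515 at least 1.83-fold, AK087080 at least 1.75-fold, AK136842 at least 1.57-fold and uc009rge at least 1.13-fold. These bounds set each Atm-/- mean against the lowest signal among probes well above background on the Atm+/+ arrays. For uc007znw that bound was under 1, so no fold is given. With normexp background correction the log2 differences were smaller, and the calls for AK084176 (0.63, limma, adjusted p = 0.147), AK087080 (0.49, 0.0649), uc009rge (0.06, 0.743) and uc007znw (-0.02, 0.937) were lost. AK161435 (0.67), AK087515 (0.65) and AK136842 (0.35) still passed, but were smaller than their bounds, which in log2 are 1.46, 0.87 and 0.65. The values of AK084176, AK087080 and uc009rge were also below their bounds of 1.23, 0.81 and 0.18.

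Among the transcripts that were lower in Atm-/-, uc009uzk stood far from the rest. It read 3.55, 3.4, 3.17 and 3.41 on the Atm+/+ arrays and -8.3 to -8.15 on the Atm-/- arrays, where it was not well above background, so that it was at least 708-fold lower (limma, adjusted p = 1.68e-06). The Ddx3y mRNA, which encodes a Y-linked RNA helicase, read 3.57, 3.38, 3.16 and 3.35 on the Atm+/+ arrays and was at least 700-fold lower in Atm-/-. The Atm-/- values of Ddx3y were -8.29 to -8.13, so that both probes read alike on each of the 8 arrays. The files give no host gene or chromosome for uc009uzk. AK031302, which read -3.88 to -0.54 in Atm+/+, was at least 10.8-fold lower, AK081524 at least 2.83-fold, uc009uzi at least 2.27-fold and AK003352 at least 2.15-fold, all 4 being not well above background on any Atm-/- array. With normexp background correction uc009uzk differed by -8.4, AK031302 by -2.52 and AK081524 by -0.87 (log2). These are smaller in size than their bounds, which in log2 are -9.47, -3.43 and -1.5. Those of uc009uzi (-1.4) and AK003352 (-1.15) were not, and each of these calls was kept.

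The other 5 of the 10 largest were measured in both genotypes. AK089257 read -2.16, -2.03, -0.97 and -0.64 in Atm+/+ and -4.59, -4.46, -4.05 and -3.79 in Atm-/-, a difference of -2.77 ± 0.16 (SE, limma, adjusted p = 0.00231). The Atm+/+ values were all above the Atm-/- values, and within each genotype the 8 h and 24 h arrays were the highest. AK155817 lay at -1.42 to -1.11 against -3.49 to -2.98 (difference -1.87 ± 0.09 SE) and uc008xiv at -3.86 to -3.67 against -5.96 to -5.18 (difference -1.9 ± 0.13 SE), without overlap. AK169930 and uc007pps differed by -1.94 ± 0.09 and -1.9 ± 0.09 (SE), and their levels overlapped between the genotypes because both also changed with time. The spread of levels by array shows the 20 transcripts side by side.

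**Figure D1:**
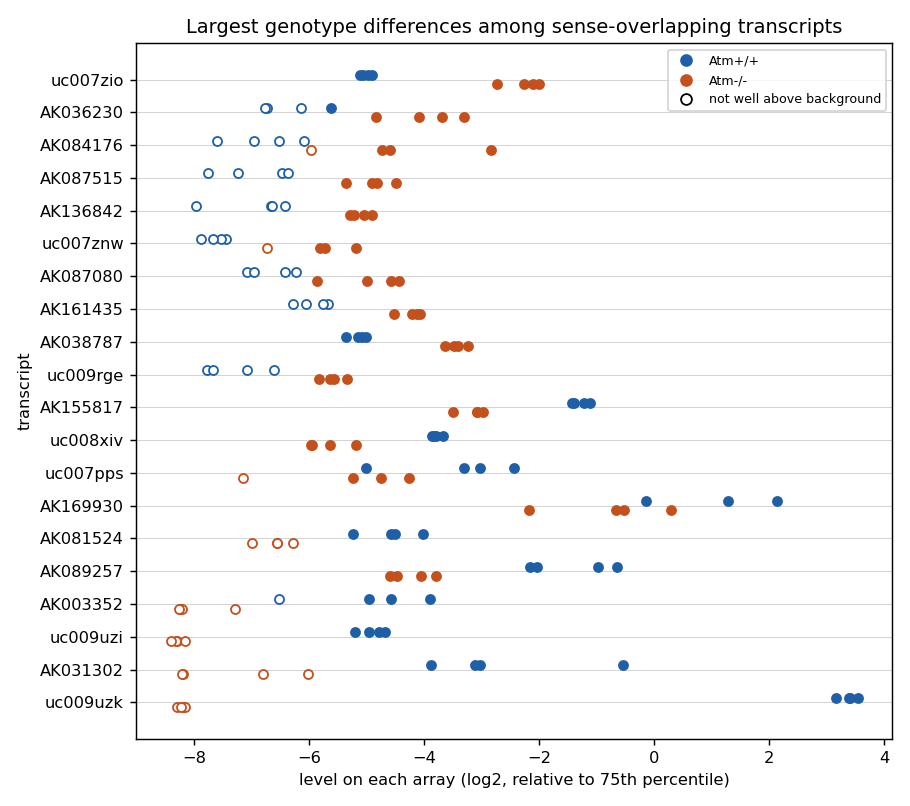
Levels of the 10 transcripts with the largest positive and the 10 with the largest negative genotype difference. The x axis is the level on each array (log2, relative to the 75th percentile), each point is 1 array (4 times per genotype), and open points were not well above background. Only AK169930 and uc007pps overlap between the genotypes, and uc009uzk spans from about the array floor to 3.55.

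Of 49 RefSeq transcripts with a symbol that passed the filter, 9 from 8 genes differed between the genotypes, 7 lower in Atm-/- and 2 higher, against 14.7% of all probes (7.38% lower and 7.28% higher). Sec16b encodes a protein of endoplasmic reticulum exit sites. Its noncoding transcript NR_027641 read -0.33, -0.45, -0.27 and -0.35 in Atm+/+ and -1.5, -1.56, -1.41 and -1.44 in Atm-/-, a difference of -1.13 ± 0.06 (SE, limma, adjusted p = 0.00222). Each genotype was level over time, and the gap between them was far wider than the spread within either.

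Both noncoding Adarb1 transcripts, NR_004429 and NR_021486, were lower, by -0.47 ± 0.08 (adjusted p = 0.0202) and -0.45 ± 0.08 (adjusted p = 0.0256; SE, limma). NR_004429 read 0.4, 0.14, 0.35 and 0.58 in Atm+/+ and -0.21, -0.26, -0.01 and 0.08 in Atm-/-. The genotypes did not overlap, and in both the 4 h array was the lowest and the 24 h array the highest. The 2 Adarb1 probes report on 1 gene and are not independent. Both calls were lost with the authors' deposited values (limma, adjusted p = 0.0513 and 0.0612) and with no filter on dim probes (0.0508 and 0.0604), and that of NR_021486 also with outlier spots removed before scaling (0.0595).

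The noncoding transcript of Vash2, which encodes a vasohibin, read 0.75, 0.76, 0.72 and 0.4 in Atm+/+ and 0.22, 0.14, 0.17 and 0.22 in Atm-/- (difference -0.47 ± 0.1 SE, limma, adjusted p = 0.0369). The Atm+/+ 24 h array came closest to the Atm-/- arrays, and the call was lost with the deposited values (limma, adjusted p = 0.0584) and with no filter (0.0755). That of Trpt1, a tRNA 2′-phosphotransferase, was the higher one of the well measured transcripts, at -1.86, -1.65, -1.59 and -1.45 against -1.36, -1.23, -1.2 and -1.16 (difference 0.4 ± 0.07 SE, limma, adjusted p = 0.0243). Its call was lost with the deposited values (limma, adjusted p = 0.0819), with no filter (0.0606) and with outlier spots removed before scaling (0.176). The Vsig8 transcript, from a gene for an immunoglobulin-domain protein, was well above background on the 4 Atm-/- arrays alone (-4.86 to -4.6) and was at least 2.05-fold higher there (limma, adjusted p = 0.00711). With normexp background correction the Vsig8 difference was 0.39 in log2 (limma, adjusted p = 0.0428), smaller than its bound of 1.04 in log2. That of Pramel32, a member of the Prame-like family, lay near background at -5.85 to -4.94 against -6.06 to -5.79 and overlapped between the genotypes (difference -0.56 ± 0.13 SE, limma, adjusted p = 0.0468). The Pramel32 call was lost under 6 alternatives (limma, adjusted p 0.0503 to 0.114).

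Mx2 and Oas1b belong to interferon-induced antiviral families and are annotated as transcribed pseudogenes in the mouse reference. The Mx2 transcript read -3.24, -2.91, -2.59 and -1.34 in Atm+/+ and -4.93, -4.49, -3.52 and -3.56 in Atm-/-, a difference of -1.61 ± 0.21 (SE, limma, adjusted p = 0.0113). The genotypes did not overlap, and in each the 0 h array was the lowest. The Oas1b transcript read -4.13, -4.99, -4.2 and -3.75 in Atm+/+ and -5.38, -5.61, -4.87 and -4.51 in Atm-/-, with overlap (difference -0.82 ± 0.13 SE, limma, adjusted p = 0.0169). Of 29 measured coding genes on a list of interferon-stimulated genes, 25 passed the test as lower in Atm-/- and none as higher. Of all probes 7.38% were lower and 7.28% higher, which is also the background for the markers below. The median difference of the list was -1.02 against 0.007 over all probes. Markers of blood cells and macrophages moved the same way: 5 of 6 measured were lower, none was at background on every array, and their summed level was 4.35 to 5.18 in Atm+/+ and 3.21 to 4.03 in Atm-/-. Of the markers of other cells, 5 of 12 for fibroblasts were lower in Atm-/-, and 6 of 7 for epithelium, 3 of 5 for endothelium, 5 of 8 for cartilage, bone and fat and 1 of 4 for muscle were higher, while 1 of 4 for nerve was higher and 2 lower. The part of these cells in the Mx2, Oas1b and other genotype values was not tested, and in RNA from whole cultures fewer cells of a type and less RNA per cell cannot be told apart.

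The noncoding transcripts were then set against the mRNA of their own gene. For 28 RefSeq transcripts of 26 genes, the array also held a probe for a coding transcript of the gene above the same filter, and the log2 ratio of the noncoding to the coding level was fitted in limma. No ratio differed between the genotypes at an adjusted p of 0.05 (smallest 0.357, 1 at an unadjusted p under 0.05), nor did any of the 31 pairs fitted (0%). The median size of the difference in ratio was 0.06, 24 of 28 were within 0.2, and 25 of 28 noncoding transcripts changed in the direction of their mRNA. Across the 28 pairs the 2 differences correlated with Pearson r = 0.95 and Spearman rho = 0.91. Without the 2 largest, Sec16b and Vsig8, r was 0.88. Apart from that r, the values over the 28 pairs include Vsig8, whose noncoding probe was well above background on no Atm+/+ array. The points share arrays and scaling, and some share a gene. Whether probes of a pair share sequence with both transcripts was not tested, since probe sequences were not used here. If they do, agreement of the 2 differences does not show that 2 transcripts moved together. On the Atm+/+ 0 h array some levels nearly coincided, such as Sec16b (-0.33 noncoding, -0.31 coding) and Psmd2 (1.63 and 1.66). Others lay apart, such as Trpt1 (-1.86 and -3.32) and Mrpl48 (-0.46 and 1.66).

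**Figure D2:**
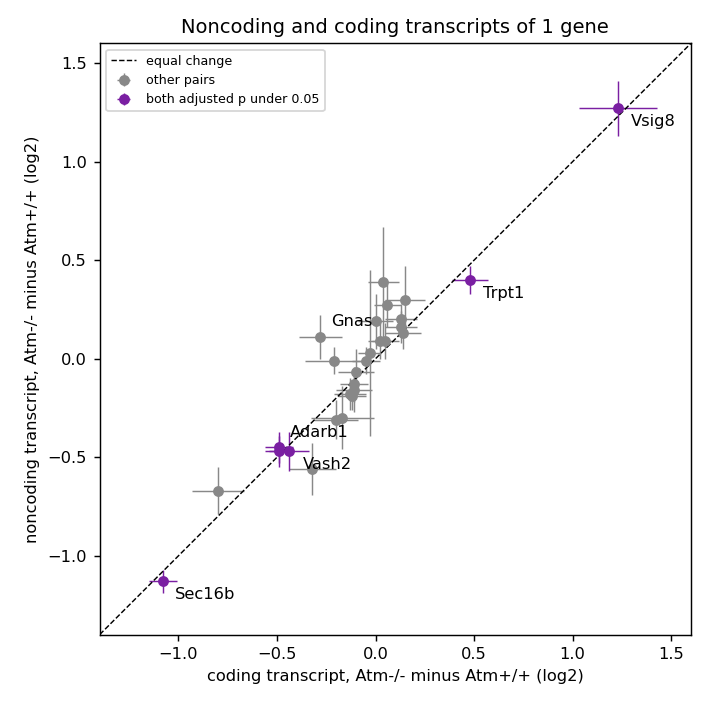
Genotype difference (Atm-/- minus Atm+/+, log2) of each noncoding transcript (y axis) against that of the coding transcript of the same gene (x axis), for 28 pairs. Bars are standard errors from limma, the dashed line marks equal change, and purple points are the 6 pairs in which both differences passed. The purple points lie along the line from Sec16b to Vsig8, and Gnas lies above it. The noncoding Vsig8 probe was not well above background on any Atm+/+ array, so its point rests on values at background there.

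Of the 28 pairs, the noncoding transcript differed between the genotypes in 7 and the coding transcript in 7, against 14.7% of all probes. In 6 pairs both did. The 2 Adarb1 pairs share the same coding probe, which is counted in both. For Sec16b the mRNA differed by -1.08 against -1.13 for the noncoding transcript, a difference in ratio of -0.05 (95% interval -0.19 to 0.1). For the 2 Adarb1 transcripts the ratio differed by 0.03 (-0.13 to 0.18) and 0.04 (-0.11 to 0.2), and for Vash2 by -0.03 (-0.17 to 0.12). All 4 of these intervals lie within 0.2 of 0. Trpt1 gave -0.08 (-0.33 to 0.16). For Vsig8 no ratio is given, since the noncoding probe was well above background on no Atm+/+ array and the coding probe on 2 of them. Pramel32 passed for the noncoding transcript (-0.56) and not for the mRNA (-0.32, adjusted p = 0.145), yet the ratio itself did not pass (-0.25, -0.65 to 0.16). Hspa13 encodes a chaperone of the heat shock 70 family. Its mRNA passed (-0.8, limma, adjusted p = 0.0478) and its noncoding transcript did not (-0.67, adjusted p = 0.0557), with a ratio difference of 0.13 (-0.18 to 0.44). The Atm+/+ 8 h and 24 h values of both Hspa13 probes were outlier spots and were left out. These differences therefore rest on the 0 h and 4 h arrays.

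**Figure D3:**
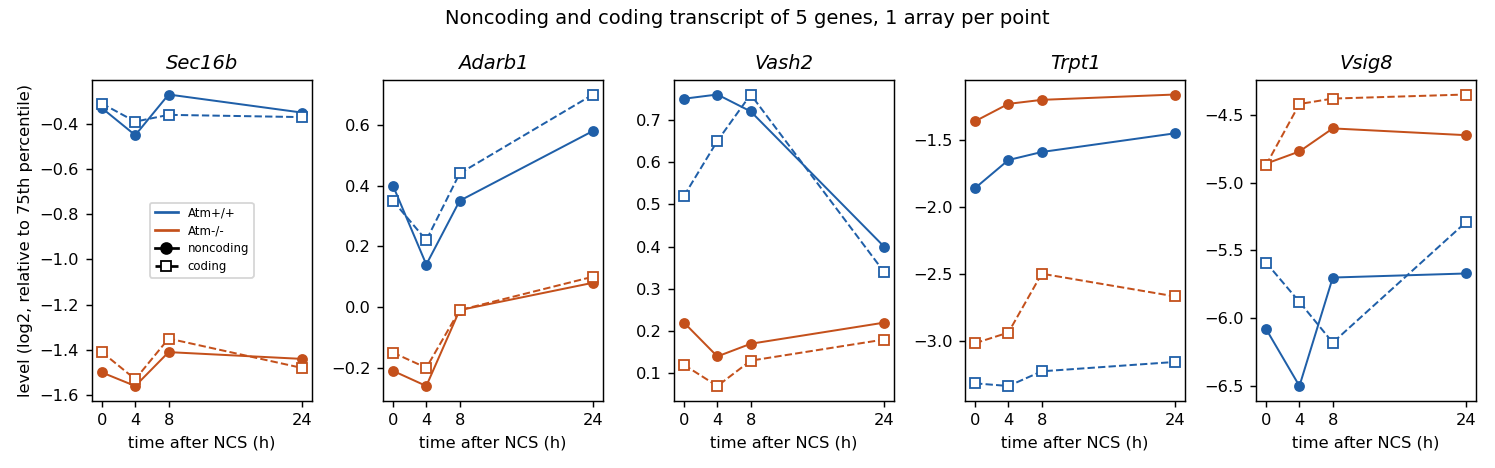
Levels (y axis, log2, relative to the 75th percentile) of the noncoding transcript (filled circles) and the coding transcript (open squares) of 5 genes over time after NCS (x axis, h), 1 array per point. The probes for both transcripts of each gene separate the genotypes in the same direction, and the noncoding Vsig8 probe was not well above background on any Atm+/+ array. For Adarb1 both dip at 4 h and are highest at 24 h.

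Gnas showed the largest departure between the genotypes. Its noncoding transcript NR_003258 read 7.12, 7, 7.19 and 7.07 in Atm+/+ and 7.23, 6.8, 7.38 and 7.43 in Atm-/-, while the mRNA was at 7.35 to 7.56 and 7.03 to 7.5. The noncoding transcript differed by 0.11 and the mRNA by -0.28, so the ratio was higher by 0.4 (0.14 to 0.65) in Atm-/-, with an adjusted p of 0.357 in limma. The Gnas mRNA value on the Atm-/- 0 h array was an outlier spot and was left out of this fit.

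After NCS, the noncoding to coding ratio again passed for none of the 28 (limma, smallest adjusted p 0.976, 1 at an unadjusted p under 0.05), and 21 of 28 noncoding transcripts had the sign of their mRNA. Prmt6, an arginine methyltransferase gene, had the widest gap, with -0.93 for the noncoding transcript and -0.15 for the mRNA. Its noncoding transcript read 1.07, 0.26, -0.21 and 0.41 in Atm+/+ and 1.11, 0.88, 0.73 and -1.07 in Atm-/-, so every array after NCS was below both untreated arrays, and the lowest was that of 8 h in Atm+/+ and of 24 h in Atm-/-. The mRNA moved between -0.63 and -0.32 on all 8 arrays. The ratio difference was -0.78 with an interval of -1.92 to 0.37. Leaving out 1 array gave 1 passing pair in 3 of the 8 cases, which was Prmt6 without Atm+/+ 24 h, Fbxo34 without Atm+/+ 0 h and Lrrc57 without Atm-/- 24 h.

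After NCS, the share of sense-overlapping transcripts called lay near that of all probes. In the comparison of the 6 treated with the 2 untreated arrays, genotype being a term in the fit, 5 of 3254 were higher and 1 was lower. Of all probes 0.199% were called higher, 0.00864% lower and 0.207% in either direction, and of the transcripts 0.154%, 0.0307% and 0.184%. At an unadjusted p under 0.05 stood 400 transcripts (12.3%), against 13.8% of all probes. The median difference was -0.083 over the transcripts and -0.045 over all probes. It was also lower for other noncoding types, at -0.086 for bidirectional, -0.082 for antisense and -0.113 for intergenic probes. The call count was 0 without either untreated array, 1 without either 8 h array, 2 without Atm+/+ 4 h, and 3 without Atm-/- 4 h or Atm-/- 24 h. All NCS comparisons share the untreated arrays and time follows array position, so that time and position cannot be told apart.

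AK036493 had the largest response. In order of time, it read -4.09, 0.55, 1.13 and -1.89 in Atm+/+ and -6.02, -0.8, 0.13 and -3.59 in Atm-/-. All treated arrays were above both untreated ones, of which the Atm-/- array was not well above background, and the difference was 4.31 ± 0.19 (SE, limma, adjusted p = 0.00543). In both genotypes the level was highest at 8 h and at 24 h lay between the 0 h and 4 h values. Against 0 h, it was higher by 4.93 at 4 h, 5.68 at 8 h and 2.32 at 24 h (limma, adjusted p = 0.0106, 0.00344 and 0.0441).

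The other 4 that were higher also had their highest level at 8 h in each genotype. AK044397 read 0.67, 2.56 and 3.4 in Atm+/+ and -0.25, 1.61, 2.53 and 0.96 in Atm-/- (difference 1.95 ± 0.09 SE, limma, adjusted p = 0.0168), and every treated array was above both untreated arrays. The Atm+/+ 24 h values of AK044397 and AK169930 were outlier spots, so their 24 h values rest on the Atm-/- array. AK169930 read -0.13, 1.28 and 2.14 in Atm+/+ and -2.17, -0.66, 0.3 and -0.52 in Atm-/- (difference 1.81 ± 0.1 SE, limma, adjusted p = 0.0255). Its genotypes lay so far apart that the treated Atm-/- arrays overlapped the untreated Atm+/+ one. The AK044397 call was lost with the authors' deposited values (limma, adjusted p = 0.235) and with no filter on dim probes (0.0657). Without that filter the AK169930 call was lost too (limma, adjusted p = 0.081).

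AK080203 read -2.15, -0.68, 0.22 and -0.92 in Atm+/+ and -3.34, -2, -0.95 and -2.18 in Atm-/- (difference 1.66 ± 0.08 SE, limma, adjusted p = 0.00567). It was the 1 transcript of the 6 that was well above background on all 8 arrays. The last, uc007pps, read -5.01, -3.03, -2.43 and -3.3 against -7.14, -4.75, -4.25 and -5.24 (difference 2.24 ± 0.11 SE, limma, adjusted p = 0.00567). Its lowest value, on the untreated Atm-/- array, was not well above background, and with normexp background correction its difference was 1.07 (limma, adjusted p = 0.06).

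The genotype comparison uses the same arrays as that of NCS. In it, the 5 transcripts that were higher after NCS differed by -1.5 ± 0.17 (AK036493), -0.91 ± 0.08 (AK044397), -1.24 ± 0.07 (AK080203), -1.9 ± 0.09 (uc007pps) and -1.94 ± 0.09 (AK169930; SE, limma). From 0 h to 8 h AK044397 gained 2.74 in Atm+/+ and 2.78 in Atm-/- (log2), AK080203 gained 2.37 and 2.4, and AK169930 2.27 and 2.48. AK036493 gained 5.22 in Atm+/+ and at least 6.15 in Atm-/-, and uc007pps 2.58 and at least 1.82, their untreated Atm-/- values being bounds at background. The test of a difference in NCS response between the genotypes called none of 3253 transcripts and none of all 23166 probes (0%). For transcripts outside the RefSeq set, no host mRNA could be set beside these values. Of 33 coding genes measured on a list of NF-kB targets and inflammatory cytokines, 12 were higher after NCS and none lower. Of all probes 0.199% were higher and 0.00864% lower. The median of the list was 1.34 against -0.045 over all probes. None of 29 p53 targets passed, where 0.207% of all probes did in either direction.

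**Figure D4:**
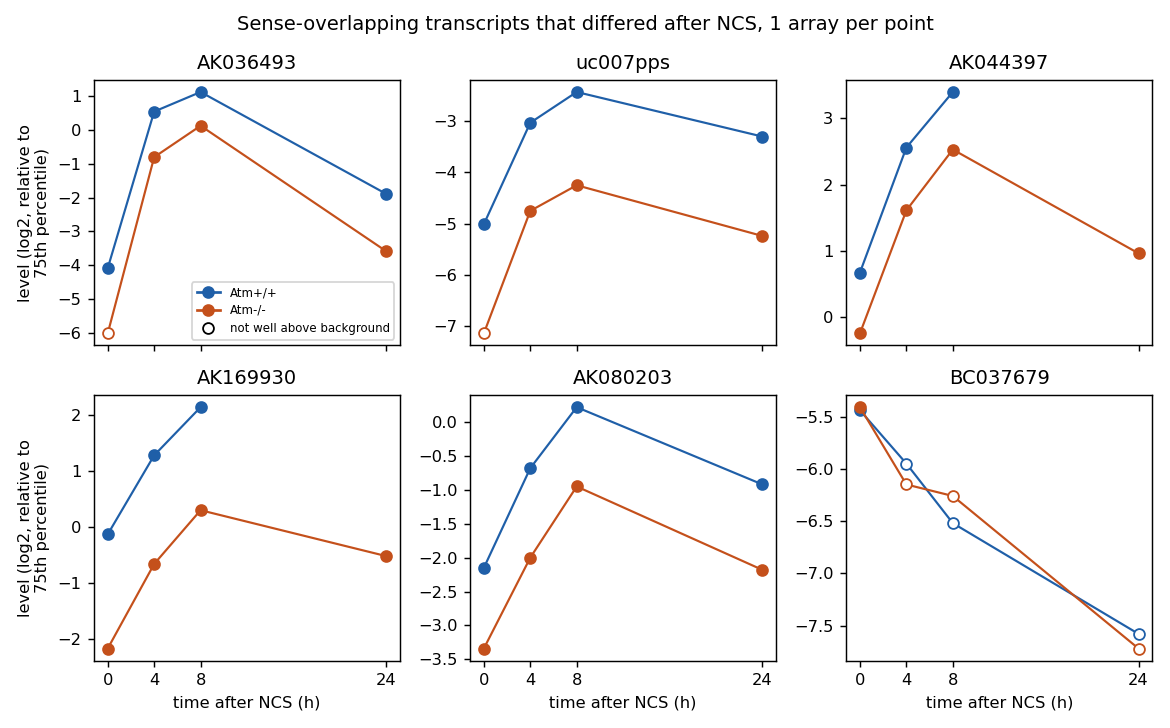
Levels (y axis, log2, relative to the 75th percentile) of the 6 transcripts called after NCS against time (x axis, h), in Atm+/+ (blue) and Atm-/- (orange), 1 array per point. Open points were not well above background, and the Atm+/+ 24 h value is missing for AK044397 and AK169930. The 5 transcripts that were higher are highest at 8 h in both genotypes, with Atm-/- below Atm+/+, and BC037679 is lowest at 24 h in both.

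BC037679 was the 1 transcript that was lower. It read -5.44, -5.95, -6.52 and -7.58 in Atm+/+ and -5.41, -6.15, -6.26 and -7.72 in Atm-/-, with both untreated arrays above all treated ones. It was not well above background on any treated array, so it was at least 1.4-fold lower (limma, adjusted p = 0.0441). The call was lost under 6 of 7 alternatives in which it was tested on all arrays, among them normexp correction (difference -0.38, limma, adjusted p = 0.324), and the adjusted p over them was 0.047 to 0.324.

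By time, 4 transcripts of 3268 were called at 4 h, all higher (AK036493, uc007pps, AK044397 and AK080203), against 0.107% of all probes (0.0987% higher and 0.00859% lower). At 8 h, 6 of 3267 were higher and 1 lower, against 0.258% of all probes (0.24% higher and 0.0172% lower). The 8 h calls added AK169930, uc007fxh (-5.07 to -4.04 in Atm+/+ and -6.05 to -5.03 in Atm-/- from 0 to 8 h) and AK015453. AK015453 read -5.3, -5.19, -6.72 and -5.43 in Atm+/+ and -5.71, -5.78, -7.14 and -6.08 in Atm-/-. It was low at 8 h alone in both genotypes and, being not well above background there, was at least 1.32-fold lower (limma, adjusted p = 0.025). AK169930 and AK088636 were nearest to a call at 4 h, with limma adjusted p = 0.103 and a difference of 1.46 ± 0.11 (SE) for the former and a difference of 1.14 ± 0.13 (SE) for the latter. No call at 4 h was left without any one of the 0 h and 4 h arrays. Without 1 array, the 8 h count was 0 without either 0 h array or Atm-/- 8 h, 2 without Atm+/+ 8 h, 3 without either 4 h array and 11 without either 24 h array, and the 4 h count was 1 without either 8 h or 24 h array.

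At 24 h, 67 of 3254 transcripts (2.06%) were called, 21 higher and 46 lower, against 2.55% of all probes (1.07% higher and 1.48% lower). Of the 67, 37 (55.2%) were well above background on all 4 arrays compared, against 79.4% of the 591 probes of any kind that passed. The levels of 54 (80.6%) did not overlap, against 85.6% of those 591. Without 1 array, the count was 1 without Atm-/- 24 h and 0 without any other. With outlier spots removed before scaling it was 2, and the median difference of all probes was then 0.12 in place of -0.07, and that of the transcripts 0.08 in place of -0.11. Under both scalings the median of the transcripts lay below that of all probes. This was not particular to them. Before outlier removal the medians were -0.119 for bidirectional, -0.104 for antisense and -0.084 for intergenic probes. The 1545 outlier spots of the Atm+/+ 24 h array compare with 44 to 203 on the others, and their part in the 24 h calls was not tested.

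Among gains at 24 h outside the 8 h set, uc007hdb had the highest level, at 3.22, 3.35, 4.13 and 4.55 in Atm+/+ and 1.94, 2.03, 2.58 and 3.14 in Atm-/- (24 h minus 0 h 1.26 ± 0.11 SE, limma, adjusted p = 0.0384). It was highest at 24 h in both genotypes, and Atm-/- was below Atm+/+ at each time. uc007zki read -0.61 and -0.9 at 0 h and 0.32 and 0.21 at 24 h, uc007vrj -4.08 and -3.78 against -2.83 and -2.78, and uc008nqe -5.59 and -5.45 against -4.55 and -4.15, Atm+/+ first in each pair. AK171765 passed on the Atm-/- array alone at 24 h, with 1.38 ± 0.14 (SE).

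Of the 10 largest losses at 24 h, 8 were on probes not well above background on either 24 h array. Among these, AK008480 was at least 2-fold lower, AK029225 at least 1.82-fold, BC037679 at least 1.37-fold, AK054441 at least 1.36-fold, AK020897 at least 1.15-fold and AK148985 at least 1.03-fold, and the bound for AK020111 and AK085049 was under 1. AK085884 read -5.4 and -4.24 at 0 h and -6.91 and -5.59 at 24 h (limma, adjusted p = 0.0441). uc009bwo rested on the Atm-/- array at 24 h, at -3.34 against -2.51 and -1.47 at 0 h.

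The NRED transcripts lay lowest at 24 h, with a median difference of -0.208 against -0.068 for all probes. Those well above background on all 8 arrays had a median of -0.165. The UCSC, RefSeq and FANTOM medians were -0.098, -0.061 and -0.044. NRED transcripts were also the ones with the lowest share well above background on all 8 arrays (62.4%), and the part of signal level in this order was not tested.

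**Figure D5:**
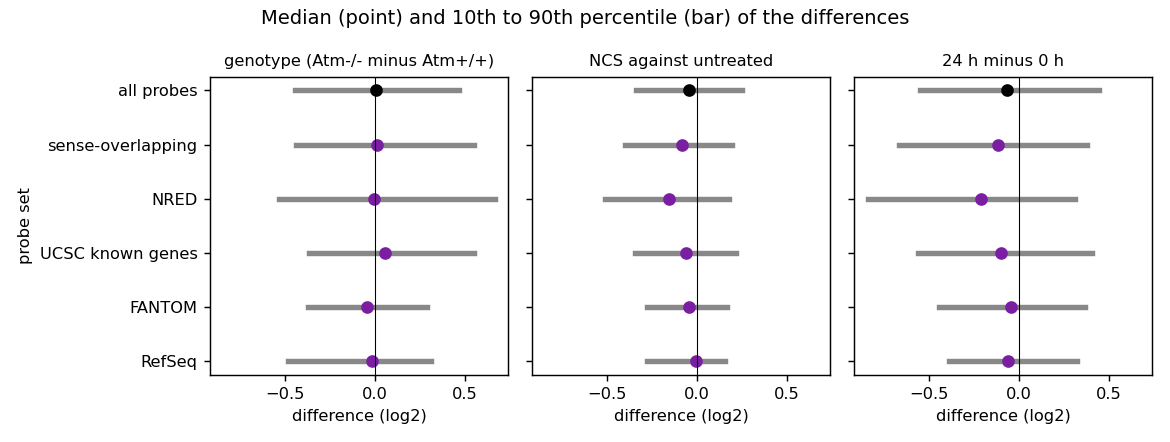
Median (point) and 10th to 90th percentile (bar) of the log2 differences (x axis) for all probes, all sense-overlapping transcripts and each of the 4 collections, in 3 comparisons. The medians lie near 0 for genotype, and the NRED median lies furthest below 0 after NCS and at 24 h.

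No transcript was called for a difference in NCS response between the genotypes (limma, 92 of 3253, or 2.83%, at an unadjusted p under 0.05, and 2.46% of all probes). The 6 with the smallest p included AK083943, which read -3.73, -5.82, -6.53 and -6.35 in Atm+/+ and -5.3, -4.82, -5.46 and -5.78 in Atm-/-. uc008zxv read -0.68 on the untreated Atm+/+ array and -2.87 to -2.21 on the other 7. AK077887, AK047212 and AK053113 also had 1 untreated array apart from the rest, at -3 in Atm+/+, 0.6 in Atm-/- and -7.89 in Atm-/- in that order, and AK003352 was described above among the transcripts lower in Atm-/-. Each of these values rests on 1 untreated array per genotype.

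Across the 8 arrays, the spread of the transcripts lay close to that of all probes. Among the 2495 measured on all, the median SD was 0.241 (log2), against 0.225 for all probes measured on all 8 arrays. An SD under 0.1 was found for 136 (5.45%), against 6.13% of those probes. An SD over 1 was found for 8 (0.321%), against 0.681%. Over all that passed the filter, AK012110 was the steadiest, at 2.1 to 2.19 (SD 0.03), followed by AK018124 at -2.46 to -2.33 (SD 0.039). AK013035, uc009cfb and uc009pjx completed the 5 steadiest, with SDs of 0.041, 0.044 and 0.046 over the 5 to 7 arrays with a value, and so are not among the 2495. The 5 with the highest SD were uc009uzk (6.201), AK031302 (2.761), AK036493 (2.538), AK047541 (2.325) and AK049599 (2.193). They were well above background on 4, 4, 7, 4 and 7 arrays in that order, so they are not among the 2495 either and their SDs include values at background. AK049599 lay between -2.72 and -1.79 on 7 arrays and at -8.41 on Atm-/- 8 h, so its spread rests on 1 array. AK047541 was high, at -3.6 to -3.07, on the 0, 4 and 24 h arrays of Atm+/+ and on the 24 h array of Atm-/-, and lay at -8.28 to -7.08 on the other 4.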

How the data were processed

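RNA of 8 cultures was measured on one-colour Agilent arrays, 1 per combination of genotype and time, after random-primed Cy3 labelling of RNA freed of rRNA, per the labels' protocols. Spot intensities are the deposited processed signals of Feature Extraction 10.5.1.1, background-subtracted within each array, per the file headers. The deposited log2 table of noncoding probes, from which the members were taken, holds the authors' scaled log2 signals. Each of its columns correlated at r = 1 with the scanner signals, with medians of 0.67 to 0.76, and how the authors scaled it is not given in the sources used here. The series' value table held the unscaled processed signals (medians 240 to 294).

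Levels were log2 intensity minus the 75th percentile of the 37246 non-control probes. Values whose spots were all marked as outliers were left out. Probes well above background on 2 or more arrays (23300) were fitted with limma 3.58.1 in R 4.3.3 with time and genotype as terms (3 residual degrees of freedom), plus their interaction for the difference in NCS response (2), and p-values were adjusted by Benjamini-Hochberg over all kept probes at 0.05. With 1 array per group and no stated separate cultures, p-values measure the spread between arrays after these terms, which may be technical, and the number of arrays limits the precision. A probe dim on one side got a bound, with each dim array raised to its lowest signal well above background. Host pairs used the brightest kept coding probe with the same symbol. The script was tested on simulated data.

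Members and gene lists were chosen with earlier results of these data known. Named were the 10 called transcripts with the largest difference in each direction per comparison (where under 5 were called, those and the 6 smallest p), called RefSeq transcripts with a symbol, and the 5 highest and 5 lowest spreads; Gnas, Prmt6, Hspa13, Fbxo34 and Lrrc57 were named after their values were seen. Of 12 gene lists searched for hosts, the interferon list held Mx2 and the imprinted list Gnas, whose transcript was not called, and the others held none. The values by collection among transcripts on all 8 arrays were added after seeing the data. Alternatives are given at the end.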

Additional observations from a re-analysis of the deposited data

How the results depend on the processing

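No paired analysis was possible because each combination of genotype and time has 1 array and the labels give no replicate numbers that pair cultures. The number of transcripts called by genotype (444) was 282 with the authors' deposited log2 values, 239 with no filter on dim probes and 293 with outlier spots removed before scaling. After NCS it was 1 in place of 6 among probes well above background on all 8 arrays. At 4 h (4) it was 1 with the deposited values, 1 without the filter and 1 on all 8 arrays. At 8 h (7) these gave 4, 4 and 1, and limma with a trend gave 13. At 24 h (67) they gave 0, 0 and 128, removing outlier spots first gave 2 and the trend 181. The 2 filters and the deposited table, which holds noncoding probes only, change how many probes are tested, and for the others the cause was not tested. Leaving out 1 array gave 131 to 639 calls by genotype, 0 to 6 after NCS, 0 to 1 at 4 h, 0 to 11 at 8 h and 0 to 1 at 24 h, and 0 to 1 passing ratios of noncoding to coding transcript after NCS. It gave 0 passing ratios by genotype. No alternative that could be fitted called a difference in NCS response; without an untreated array that term could not be fitted. Of 541 values of named transcripts under the other alternatives, 418 kept direction and call, 120 lost the call, 2 gained it and 1 changed sign: uc007znw, at -0.02 by genotype with normexp correction. Of 574 values with 1 array left out, 298 lost the call and none changed sign. An array left out of a time leaves its partner uninformative on genotype, so both give 1 count.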
